A study of Arabidopsis thaliana with 6 samples.

Results

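The 8 genes described here encode the glyoxylate cycle of plant peroxisomes, the steps that carry its product towards sugar, and the lipase that opens oil breakdown. They were taken by their TAIR gene identifiers and are ICL (AT3G21720), MLS (AT5G03860), CSY2 (AT3G58750), CSY3 (AT2G42790), PMDH1 (AT2G22780), PMDH2 (AT5G09660), PCK1 (AT4G37870) and SDP1 (AT5G04040). Each gene stood alone on 1 of the 32424 loci of the deposited table, and all 8 were among the 18194 loci tested, those whose FPKM (fragments per kilobase, scaled to the number mapped) averaged 1 or more over the 6 libraries. The libraries came from whole seedlings of Arabidopsis thaliana, wild type, ecotype Col-0, labelled as 4 days old, although the growth text gives 3 days. One group of 3 was held for 1 h in liquid MS (Murashige and Skoog) medium with NAE 18:3 (N-linolenoylethanolamine, the ethanolamine amide of linolenic acid) at 100 µM. The other group of 3 was held for the same time in the same medium with DMSO at 0.07%, and both media held sucrose at 1%. The DMSO content of the NAE 18:3 medium is not given in the labels. The replicates are called biological replicates, no batch is recorded, and all organs of the seedling were extracted together.

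In an oilseed seedling, a lipase releases fatty acids from the triacylglycerol of oil bodies, and peroxisomal beta-oxidation cuts them to acetyl-CoA. Citrate synthase joins acetyl-CoA to oxaloacetate, isocitrate lyase and malate synthase then bypass the carbon-losing steps of the citric acid cycle, and malate dehydrogenase closes the loop. Phosphoenolpyruvate carboxykinase leads the product into gluconeogenesis, which feeds the seedling with sugar until it photosynthesises.

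The deposited scale and the makeup of the seedlings bear on the values. FPKM summed over all loci differed between the groups, at 687951 to 697645 in DMSO and 991458 to 1023152 in NAE 18:3 libraries when AT3G08520 and AT2G07748, each extreme in 1 library, were left out. The number of fragments per library is unknown. Steps among low values gave a rough relative depth of 0.48, 0.75 and 0.97 for the DMSO libraries and 0.99 and 1.27 for NAE 18:3 replicates 2 and 3, against NAE 18:3 replicate 1, but only 23.8% to 29.7% of the loci compared lay at the common step. Organ and residue markers differed too. Over all loci tested, 44.1% were called higher and 39.2% lower by limma at adjusted p under 0.05. The 11 seed reserve genes (among them storage proteins, oleosins and late embryogenesis proteins) all fell. Their summed level was 99.3 to 138 FPKM in DMSO and 5.61 to 7.57 FPKM after NAE 18:3. Most averaged below 1 FPKM after NAE 18:3 and passed the filter only through the DMSO libraries. With the filter at a mean of 5 FPKM, 2 remained called lower. Of 9 root genes, 7 were tested, of which 6 fell and the other stayed level (log2 change -0.006, limma adjusted p = 0.93). Some of the root genes that fell also averaged below 1 FPKM after NAE 18:3 and passed the filter only through the DMSO libraries. With the filter at a mean of 5 FPKM, 3 root genes were called lower. The 9 root genes had sums of 94.9 to 99.2 FPKM in DMSO and 49.4 to 55.2 FPKM after NAE 18:3. Of 6 green shoot genes 5 rose and 1 fell, or 2 and 3 with quantile normalization, with sums of 30271 to 31425 and 60333 to 63665 FPKM, and none of these markers was at 0 in all libraries. The part of seed residue, organ proportions and scaling in the results below was not tested, and in whole seedlings fewer cells of a type and less RNA per cell cannot be told apart.

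The 8 genes did not move together. MLS, PMDH1, CSY3, ICL and PCK1 fell after NAE 18:3, while PMDH2, SDP1 and CSY2 rose. Thus 3 of 8 were called higher and 5 of 8 lower (limma on log2(FPKM + 1), Benjamini-Hochberg adjusted p under 0.05 over all loci tested). These counts are near those of the whole table, in which 83.2% of loci were called, 44.1% higher and 39.2% lower. A log2 change of at least 1 was reached by PMDH2 and SDP1 upwards, against 18.4% of all loci, and by MLS, PMDH1 and CSY3 downwards, against 17.2%. The 3 values of one group lay outside those of the other for 8 of 8 genes, and for 84.6% of all loci. The median log2 change of the 8 genes was -0.54, beside 0.06 for all loci. With each library scaled to one upper quartile the median of all loci moved to -0.25, with 5857 loci higher and 9497 lower in place of 8018 and 7125. With scaling to one summed FPKM it moved to -0.41, with 4831 higher and 10786 lower. In both scalings 7 of the 8 genes kept their direction and call, and CSY2 did not.

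**Figure D1:**
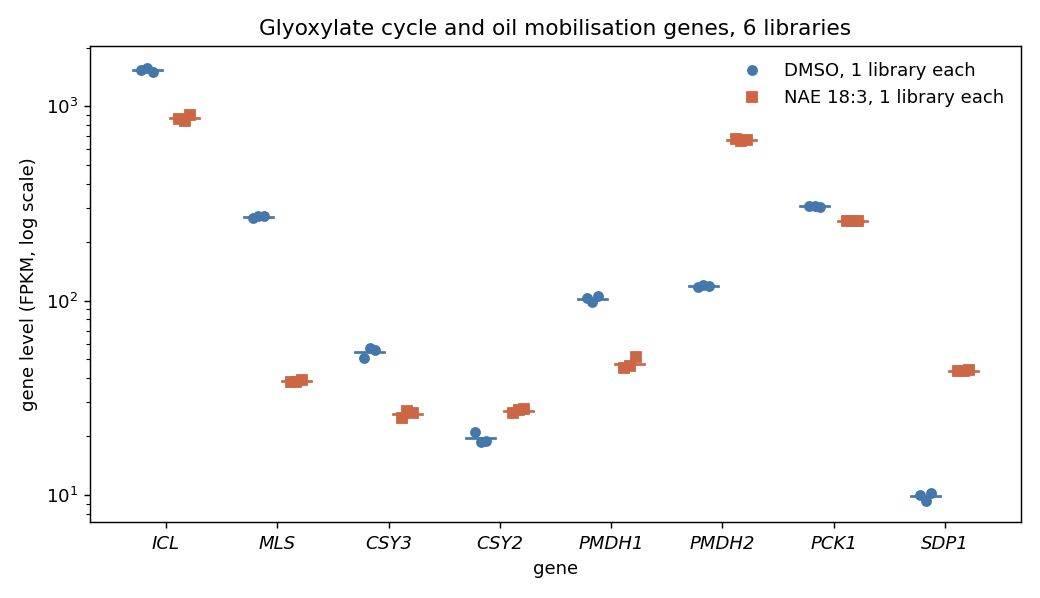
Gene level in FPKM (log axis) of the 8 genes in each DMSO library (circles) and each NAE 18:3 library (squares), with short lines at the group means. The groups are apart for every gene, with MLS falling from 270 to 38.4 FPKM and PMDH2 rising from 119 to 671 FPKM.

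ICL and MLS encode isocitrate lyase and malate synthase, the enzymes that set the glyoxylate cycle apart from the citric acid cycle, and both fell, MLS much further than ICL. ICL, which splits isocitrate into succinate and glyoxylate, stood at 1538, 1580 and 1495 FPKM in DMSO replicates 1 to 3 and at 864, 836 and 899.6 FPKM in NAE 18:3 replicates 1 to 3. It was the highest of the 8 genes in both groups and stood above 99.9% of all loci tested in DMSO and 99.3% after NAE 18:3. The fall was 1.77-fold in mean FPKM, with a log2 change of -0.83 (95% interval -0.91 to -0.74, SE 0.04, adjusted p = 5.3e-08 by limma with the Benjamini-Hochberg method). The size of this fall depended on the scaling, at -1.18 with the upper quartile, -1.37 with one summed FPKM and -1.79 with quantile normalization.

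MLS joins glyoxylate to acetyl-CoA to form malate. Its levels were 264, 272 and 274 FPKM in DMSO and 38.01, 38.1 and 39.2 FPKM after NAE 18:3. All NAE 18:3 values lay far below all DMSO values. The mean fell 7.02-fold, a log2 change of -2.78 (95% interval -2.85 to -2.71, standard error 0.03, adjusted p = 3.9e-11), and only 1.12% of the loci tested had a lower one. Under the other scalings it was between -3.01 and -3.31.

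Since both genes fell by different amounts, their ratio within a library changed. ICL stood at 5.82, 5.82 and 5.46 times the FPKM of MLS with DMSO, and at 22.7, 22.0 and 23.0 times with NAE 18:3. A ratio within a library is free of scaling by 1 factor per library, as with the upper quartile or one summed FPKM. It is not free of quantile normalization, with which ICL changed by -1.79 and MLS by -3.01, and the ratio was not computed there. The mean log2 ratio rose by 1.98, and the groups did not overlap. The exact two-sided permutation test gave p = 0.1, adjusted over 3 ratios to 0.1, which is the smallest p that 3 against 3 libraries allow.

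The table lists several assembled transcripts for some of these loci, numbered here in the table's order. The fall of ICL was uneven between its transcripts, which are both assigned to AT3G21720.1. Transcript 1 went from 1254, 1308 and 1203 FPKM to 828, 827 and 896 FPKM. Transcript 2 went from 284, 272 and 292 FPKM to 35.4, 9.25 and 3.97 FPKM, so that its share of the locus fell from 18.4% ± 1.17 to 1.88% ± 1.95 (SD, n = 3). The MLS locus drew 100% of its FPKM from AT5G03860.1 in DMSO and at least 99.99% after NAE 18:3. Transcript values are estimates that divide shared reads, and they were not tested.

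**Figure D2:**
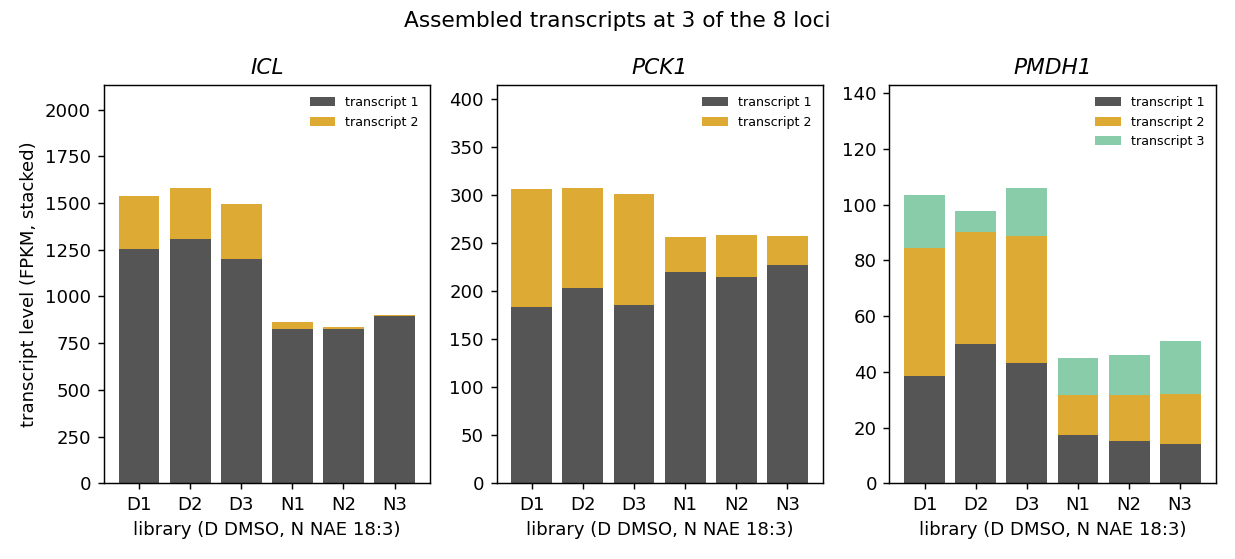
Stacked FPKM of the assembled transcripts of ICL, PCK1 and PMDH1 in the 3 DMSO (D) and 3 NAE 18:3 (N) libraries. Transcript 2 of ICL and of PCK1 is the smaller after NAE 18:3, and transcript 1 of PCK1 is the higher there on the deposited scale, at 214 to 227 against 184 to 203 FPKM, but lower (log2 change -0.14 and -0.33) with upper quartile and summed scaling.

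CSY2 and CSY3 encode the peroxisomal citrate synthases that condense acetyl-CoA with oxaloacetate, and they went in opposite directions on the deposited scale. CSY3 stood at 50.6, 56.9 and 55.9 FPKM in DMSO and 24.8, 27.0 and 26.3 FPKM after NAE 18:3. It fell 2.09-fold, with a log2 change of -1.04 (95% interval -1.16 to -0.91, standard error 0.06, limma adjusted p = 2.1e-07). Its 3 transcripts kept similar shares in both groups, with transcript 2 at 52.6% in each.

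CSY2 stood at 21.0, 18.8 and 18.9 FPKM in DMSO and 26.3, 27.3 and 27.7 FPKM after NAE 18:3. The groups did not overlap, and the log2 change was 0.45 (95% interval 0.33 to 0.58, standard error 0.05, adjusted p = 4.8e-05). This rise was not stable to scaling. It was 0.14 with quantile normalization, 0.12 with the upper quartile (limma adjusted p = 0.076) and -0.06 with one summed FPKM (adjusted p = 0.3). Relative to the median of all loci under the same scaling it was 0.40, 0.17, 0.36 and 0.35 for the deposited, quantile, upper quartile and summed scales.

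The balance of the pair shifted whatever the factor that scales each library, and with quantile normalization CSY3 changed by -1.39 and CSY2 by 0.14. CSY3 stood at 2.41, 3.03 and 2.96 times CSY2 with DMSO, and at 0.942, 0.987 and 0.949 times with NAE 18:3. The mean log2 ratio fell by 1.54, and the groups did not overlap (exact permutation p = 0.1, adjusted p = 0.1, the smallest possible). On the deposited scale the pair summed to 74.0 ± 2.19 FPKM in DMSO and 53.2 ± 1.73 FPKM after NAE 18:3 (SD, n = 3).

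Citrate synthases outside this pair were the mitochondrial CSY4 and the little expressed CSY1 and CSY5. CSY4 (AT2G44350), of the citric acid cycle, stood at 53.9 ± 1.21 and 63.2 ± 3.50 FPKM, and its log2 change of 0.23 turned to -0.12, -0.17 and -0.31 with upper quartile, quantile and summed scaling. CSY1 (AT3G58740), the neighbour of CSY2 on the chromosome, was listed at 0 in all 6 libraries, and CSY5 (AT3G60100) in all but NAE 18:3 replicate 3. The peroxisomal genes made up 57.9% ± 0.648 of the FPKM of CSY2, CSY3 and CSY4 in DMSO and 45.7% ± 0.747 after NAE 18:3.

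PMDH1 and PMDH2, the peroxisomal NAD-dependent malate dehydrogenases, moved furthest apart. The enzymes interconvert malate and oxaloacetate, reoxidise the NADH of beta-oxidation, and in green tissue supply NADH for hydroxypyruvate reduction in photorespiration. PMDH2 stood at 118, 120 and 118 FPKM in DMSO and 678, 666 and 671 FPKM after NAE 18:3. The rise was 5.66-fold, a log2 change of 2.49 (95% interval 2.43 to 2.55, standard error 0.03, limma adjusted p = 2.7e-11), and it was the largest rise of the 8 genes. Among all loci tested 96.2% had a lower log2 change. With the other scalings it was between 1.95 and 2.22.

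PMDH1 stood at 103, 97.7 and 106 FPKM in DMSO and 44.8, 46.1 and 51.0 FPKM after NAE 18:3. The groups did not overlap, and the mean fell 2.16-fold, with a log2 change of -1.10 (95% interval -1.22 to -0.97, standard error 0.05, adjusted p = 1.3e-07). Transcripts 1 and 2 of PMDH1 were lower after NAE 18:3, at 15.5 ± 1.59 against 43.9 ± 5.88 FPKM and 16.3 ± 1.87 against 44.0 ± 3.26 FPKM. Transcript 3 overlapped between the groups, at 18.8, 7.34 and 17.1 FPKM in DMSO and 13.3, 14.4 and 18.8 FPKM after NAE 18:3. For PMDH2, AT5G09660.1 held 95.1% to 97.8% of the locus in DMSO and 97.6% to 98.3% after NAE 18:3.

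In DMSO the pair was near balance, with PMDH1 at 0.878, 0.817 and 0.894 times PMDH2. After NAE 18:3 PMDH1 was at 0.0661, 0.0693 and 0.0760 times PMDH2. The mean log2 ratio fell by 3.62, and the groups did not overlap (exact permutation p = 0.1, adjusted p = 0.1, the smallest possible). On the deposited scale the pair summed to 221 ± 3.56 FPKM in DMSO and 719 ± 6.13 FPKM after NAE 18:3.

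**Figure D3:**
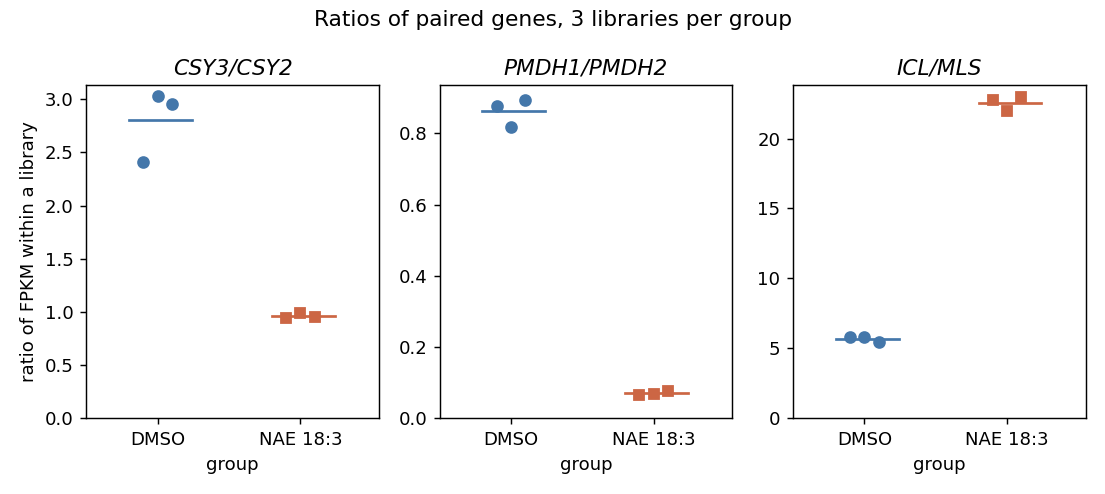
Ratio of FPKM within each library for CSY3 to CSY2, PMDH1 to PMDH2 and ICL to MLS, with lines at the means of 3 libraries. The ratio of PMDH1 to PMDH2 goes from 0.863 to 0.0705, that of CSY3 to CSY2 from 2.80 to 0.959, and that of ICL to MLS from 5.70 to 22.5.

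Malate dehydrogenase genes of other compartments mostly fell. The mitochondrial mMDH1 (AT1G53240) went from 524 ± 27.1 to 208 ± 8.11 FPKM, and the plastid NAD-dependent gene (AT3G47520) from 137 ± 2.03 to 67.8 ± 1.04 FPKM. The locus that joins mMDH2 (AT3G15020) with a neighbour changed by -1.10 on the log2 scale. The cytosolic cMDH1 (AT1G04410) and cMDH2 (AT5G43330) changed by -0.42 and -0.12, and under the other scalings by -0.63 to -0.96 and -0.47 to -0.65. The plastid NADP-dependent gene (AT5G58330), of the light-driven malate valve, rose by 0.70, or by 0.16 to 0.45 under the other scalings, and cMDH3 (AT5G56720) did not exceed 0.143 FPKM in any library. Levels were summed over the 8 malate dehydrogenase genes on loci of their own, on the deposited scale only. On that scale FPKM over all loci summed to more in the NAE 18:3 libraries. The malate dehydrogenase sum was 1702 ± 33.6 FPKM in DMSO and 1729 ± 19.6 FPKM after NAE 18:3. The peroxisomal pair held 13.1%, 12.5% and 13.4% of that sum with DMSO, and 42.1%, 41.3% and 41.2% with NAE 18:3.

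PCK1 encodes the cytosolic phosphoenolpyruvate carboxykinase that turns oxaloacetate into phosphoenolpyruvate, and it changed least of the 8 genes on the deposited scale. It stood at 306, 307 and 301 FPKM in DMSO and 256, 258 and 257 FPKM after NAE 18:3. The groups did not overlap and the mean fell 1.19-fold, with a log2 change of -0.24 (95% interval -0.30 to -0.19, standard error 0.03, limma adjusted p = 2e-05). The change was -0.32 with quantile normalization, -0.60 with the upper quartile and -0.78 with one summed FPKM.

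The transcripts of PCK1 shifted against each other. On the deposited scale transcript 1 was higher after NAE 18:3, at 220, 214 and 227 FPKM against 184, 203 and 186 FPKM in DMSO. This difference, 0.21 on the log2 scale, turned to -0.14 with the upper quartile and -0.33 with one summed FPKM. Transcript 2 was lower, at 36.2, 43.8 and 29.7 FPKM against 122, 104 and 116 FPKM, and was lower with both scalings as well. The share of transcript 2 was 37.4% ± 3.12 in DMSO and 14.2% ± 2.71 after NAE 18:3, and both are assigned to AT4G37870.1. The related PCK2 (AT5G65690) rose from 0.453 ± 0.103 to 3.26 ± 0.146 FPKM, and passed the filter only through the NAE 18:3 libraries. Its log2 change was 1.55, or 2.62 on log2(FPKM + 0.1). PCK1 held 98.7% to 99.9% of the FPKM of PCK1 and PCK2 over the libraries.

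SDP1 encodes the oil body triacylglycerol lipase whose loss makes seedlings depend on added sugar, and it rose while most cycle genes fell. It stood at 10.0, 9.34 and 10.2 FPKM in DMSO, the lowest of the 8 genes, and at 43.3, 43.4 and 43.7 FPKM after NAE 18:3. The rise was 4.41-fold, with a log2 change of 2.04 (95% interval 1.93 to 2.14, standard error 0.05, limma adjusted p = 1e-09). The groups did not overlap. With the other scalings it was between 1.52 and 1.78. Both transcripts, assigned to AT5G04040.1, were higher after NAE 18:3, transcript 1 at 14.5 ± 0.709 against 2.43 ± 0.359 FPKM and transcript 2 at 29.0 ± 0.517 against 7.42 ± 0.773 FPKM.

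The related lipase gene SDP1L (AT3G57140) went the other way. It fell from 4.10 ± 0.113 to 1.59 ± 0.292 FPKM, a log2 change of -0.99 (standard error 0.11, limma adjusted p = 2.8e-05). SDP1 held 71.6%, 69.1% and 71.1% of the summed FPKM of both genes with DMSO, and 97.2%, 96.2% and 96.1% with NAE 18:3.

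**Figure D4:**
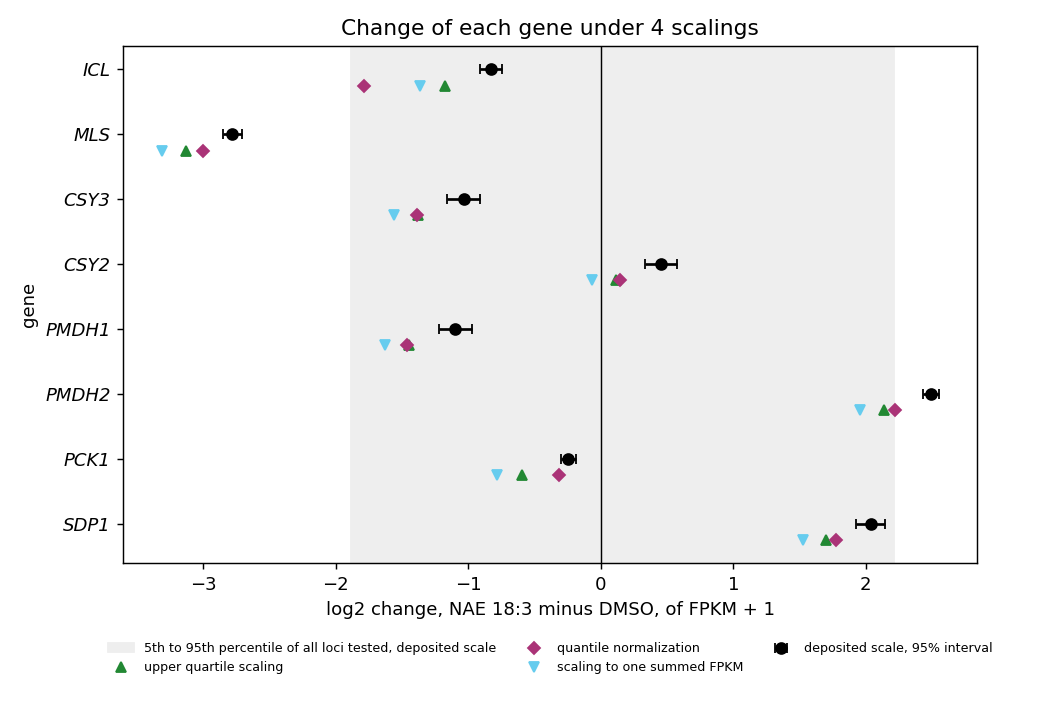
Log2 change of FPKM + 1 (NAE 18:3 minus DMSO) of each gene, with the 95% interval on the deposited scale in black and the change under 3 other scalings as coloured marks. The grey band spans the 5th to 95th percentile of all loci tested (-1.88 to 2.21). MLS and PMDH2 lie outside the band on the deposited scale, and the marks of CSY2 lie on both sides of 0.

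The order of the levels changed between the groups. In DMSO it ran ICL, PCK1, MLS, PMDH2, PMDH1, CSY3, CSY2 and SDP1, and no neighbours in this order overlapped in their 3 values. After NAE 18:3 it ran ICL, PMDH2, PCK1, PMDH1, SDP1, MLS, CSY2 and CSY3, and of the neighbours only CSY2 and CSY3 overlapped. MLS therefore went from the third place to the sixth and PMDH2 from the fourth to the second. Replicates were close, with a standard deviation of 0.294% to 6.85% of the mean for each gene and group.

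The relatives of the 8 genes in other compartments or of lower level numbered 12, of which 9 were tested. Of these 3 rose and 6 fell (median log2 change -0.42), beside 44.1% higher, 39.2% lower and a median of 0.06 over all loci. The 3 that rose include PCK2, which averaged 0.453 FPKM in DMSO and 3.26 FPKM in the other group. PCK2 did not pass the filter through the DMSO libraries. With the filter at a mean of 5 FPKM, 2 relatives rose and 5 fell. With either the upper quartile, quantile or summed scaling 2 rose and 7 fell. The next list holds genes of lipid breakdown and beta-oxidation. Of 17 tested, 7 were higher, 7 lower and 3 not called (median -0.04). These counts are near the 44.1% higher and 39.2% lower of all loci. Of the 7 that were lower, 1 averaged 2.74 FPKM in DMSO and 0.309 FPKM in the other group. It passed the filter only through the DMSO libraries. With the filter at a mean of 5 FPKM, 7 were higher and 6 lower. With either the upper quartile, quantile or summed scaling 11 fell. CGI58 (AT4G24160), a regulator of lipid homeostasis that acts with the peroxisomal fatty acid transporter, rose from 6.78 ± 0.824 to 103 ± 3.55 FPKM. ACX4 (AT3G51840), the short-chain acyl-CoA oxidase, rose from 57.1 ± 0.680 to 263 ± 1.21 FPKM. Of the genes that fell, KAT5 (AT5G48880), a ketoacyl-CoA thiolase, went from 45.0 ± 1.42 to 8.82 ± 0.479 FPKM and MFP2 (AT3G06860), the multifunctional protein of the core cycle, from 109.9 ± 1.54 to 47.2 ± 0.734 FPKM.

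The list of partner genes covers acetate activation, organic acid transport and gluconeogenesis. Of 12 tested, 7 were higher, 3 lower and 2 not called (median 0.78), beside 44.1% higher and 39.2% lower over all loci. With the upper quartile and with quantile normalization 7 were higher and 5 lower, and with one summed FPKM 6 and 5. The cytosolic fructose bisphosphatase gene (AT1G43670), a gluconeogenic step below PCK1 that also serves sucrose synthesis in the light, rose from 47.8 ± 0.878 to 512 ± 15.01 FPKM. PPDK (AT4G15530), pyruvate orthophosphate dikinase, which like PCK1 forms phosphoenolpyruvate, rose from 14.0 ± 1.26 to 151 ± 2.50 FPKM. ACO3 (AT2G05710), an aconitase, fell from 185 ± 7.10 to 74.7 ± 0.891 FPKM, and the enolase gene LOS2 (AT2G36530) from 535 ± 13.4 to 334 ± 5.97 FPKM.

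PMDH2 rose beside the peroxisomal genes of photorespiration. Of 8 tested 7 rose and 1 fell, beside 44.1% and 39.2% of all loci, and 6 rose by at least 1 on the log2 scale (median 1.85). AGT1 (AT2G13360), serine:glyoxylate aminotransferase, rose from 193 ± 3.72 to 2269 ± 39.7 FPKM, and GGT1 (AT1G23310), glutamate:glyoxylate aminotransferase, from 234 ± 6.03 to 2420 ± 44.3 FPKM. Their log2 changes were 3.55 for AGT1 and 3.36 for GGT1, beside 2.49 for PMDH2. The catalase gene CAT3 (AT1G20620) fell by 0.33, with changes of -0.68 to -0.87 under the other scalings. AGT1, GGT1 and PMDH2 are expressed in green tissue, and the part of organ proportions in their rise was not tested.

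Import and processing genes of the peroxisome, which bring all but the cytosolic and oil body proteins of this set to their place, were the last such list. Of 14 tested, 10 were higher, 3 lower and 1 not called (median 0.35), beside 44.1% and 39.2% over all loci. With the upper quartile 6 rose, and with one summed FPKM 5 rose and 7 fell. LON2 (AT5G47040), a peroxisomal protease, rose from 17.7 ± 0.492 to 213 ± 0.773 FPKM, and PEX13 (AT3G07560), of the docking complex, from 52.6 ± 2.23 to 172 ± 3.75 FPKM. PEX2 (AT1G79810), a membrane protein of the peroxisomal import machinery, changed by -0.23, and by -0.43 to -0.73 under the other scalings.

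**Figure D5:**
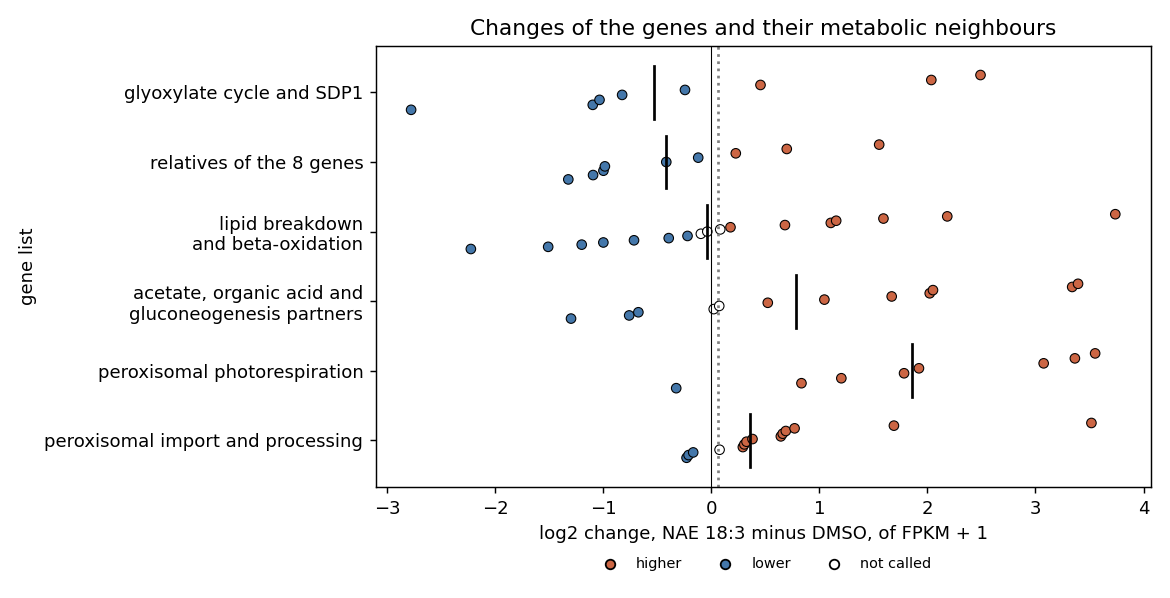
Log2 change of FPKM + 1 (NAE 18:3 minus DMSO) of each tested gene in 6 lists, coloured by call, with black bars at the list medians and a dotted line at the median of all loci tested (0.06). The list medians run from -0.54 for the 8 genes to 1.85 for peroxisomal photorespiration.

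The markers of seed residue, green tissue and root had these named members. CRA1 (AT5G44120), a cruciferin storage protein, fell from 40.8 ± 8.69 to 0.437 ± 0.123 FPKM, and OLEO2 (AT5G40420), an oil body oleosin, from 8.22 ± 0.456 to 0.399 ± 0.0485 FPKM. CA1 (AT3G01500), the chloroplast carbonic anhydrase, rose by 3.63 and RCA (AT2G39730), rubisco activase, by 2.69 on the log2 scale (1.18 with quantile normalization), while GLK1 (AT2G20570), a regulator of chloroplast genes, fell by 0.35, with changes of -0.69 to -0.87 under the other scalings. The root genes PIN2 (AT5G57090), an auxin transporter, and CASP1 (AT2G36100), of the Casparian strip, changed by -1.98 and -1.45.

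Loci most like ICL and PCK1 over the 6 libraries were taken by the Euclidean distance between vectors of log2(FPKM + 1), each centred on its mean. The 3 nearest to ICL were EIF3G1 (AT3G11400), AT5G59613 and MTHSC70-2 (AT5G09590), at distances of 0.052, 0.052 and 0.061 and with log2 changes of -0.82, -0.84 and -0.83. The 3 nearest to PCK1 were FRO1 (AT5G67590), GRF10 (AT1G22300) and AT1G36732, at distances of 0.024, 0.026 and 0.031. Since the libraries form 2 groups, this distance mostly reflects the size of the change.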

How the data were processed

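RNA-seq libraries of 3 DMSO and 3 NAE 18:3 samples were grouped by the titles in the labels. Per the submitters' processing notes, the authors used TopHat, Cufflinks and Cuffdiff with the TAIR9 build, and versions and settings are not given in the sources used here. The deposited values were read as FPKM from those notes and from the values, since the headers name no unit. Of 61448 transcripts on 32424 loci, 32423 loci had transcript values that added up to their gene value (relative tolerance 0.001). The 4 merged columns were not used. FPKM keeps no total count, and low values did not give whole reads for most loci (23.8% to 29.7% lay at a common step), so no count model or counting interval is given.

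Loci that averaged 1 FPKM or more were fitted as log2(FPKM + 1) in R 4.3.3 by limma 3.58.1. The model held group alone, with a mean-variance trend and Benjamini-Hochberg adjustment over all loci tested, at a threshold of 0.05. The code was tested on simulated data. Log2 changes on this scale understate those of low genes. Ratios within a library were compared by exact two-sided permutation tests (scipy 1.17.1). All 97 of 97 listed genes were found by identifier in the annotation of TAIR10.1, the source of symbols, and because the builds differ no coordinates or sequences are given. A gene with several loci was taken at its most abundant one. Values of near-identical copies are uncertain.

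The 8 genes and the lists were chosen with earlier results of these data known. Named genes are the 8, their 12 relatives, up to 2 rises and 2 falls with the smallest adjusted p from each other list, and the 3 loci nearest to ICL and to PCK1. One gene that this rule names is not reported here. The alternatives were other pseudocounts, filters and scalings, no trend, a replicate block and leaving out each library. Scaling to one summed FPKM, and both linear scalings of transcripts, were added after seeing the data. The replicate numbers were not used to pair the libraries, except in the replicate block.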

Additional observations from a re-analysis of the deposited data

How the results depend on the processing

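Across the alternatives, all 8 genes but CSY2 kept their direction and their call. CSY2 was at 0.12 and no longer called with upper quartile scaling, and at -0.063 with scaling to one summed FPKM, and CSY4 turned to -0.12, -0.17 and -0.31 with upper quartile, quantile and summed scaling. Transcript 1 of PCK1 turned from 0.21 to -0.14 and -0.33, and transcript 3 of PMDH1, whose groups overlapped, from 0.18 to -0.15 and -0.33, with upper quartile and summed scaling. In the lists, 11 genes of lipid breakdown fell with each of these 3 scalings in place of 7, and 5 of the acetate, organic acid and gluconeogenesis genes in place of 3. Of the import and processing genes 6 rose with the upper quartile and 5 with one summed FPKM in place of 10, and 7 fell with one summed FPKM in place of 3. With the replicate block the calls of the 8 genes stayed at 3 higher and 5 lower. The log2 changes could not move there, since every replicate number has a library in each group. The correlation of deviations between libraries of the same number was -0.013, -0.009 and 0.018, so these libraries showed no shared deviation. Leaving out each library in turn gave 3 higher and 5 lower each time, with log2 changes of -0.85 to -0.80 for ICL, -2.80 to -2.77 for MLS and 0.43 to 0.50 for CSY2. The changes of the log2 ratios were then 1.95 to 2.00 for ICL to MLS, -1.64 to -1.48 for CSY3 to CSY2 and -3.67 to -3.57 for PMDH1 to PMDH2, and each kept its direction with a pseudocount of 1 and with the most abundant transcript. The causes of these shifts with scaling were not tested. The unknown depth limits the precision of genes near 0, such as CSY5 and cMDH3.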
